A study of Mus musculus with 6 samples.

Results

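Livers of Optn knockout mice taken after acetaminophen were compared with livers of saline-injected wild-type mice, so drug and genotype differ together between the groups. The comparison takes 4 of the 6 samples of the series, and all genes with a mean FPKM (fragments counted for a gene, scaled to its length and to the library's total) of at least 0.5 over these 4 libraries, which are 11693 of 55385 genes in the deposited table. All mice were C57BL/6 and 6 weeks of age. The 2 control mice (replicates 3 and 6) were wild type, and each was given an intraperitoneal injection of 200 µL phosphate-buffered saline. The 2 treated knockout mice (replicates 4 and 5) carried the genotype Optn-/- and received 500 mg/kg acetaminophen by the same route. Both groups were left for 6 h. A further 2 wild-type mice (replicates 1 and 4) received the same acetaminophen dose for the same time, and they serve here to show how far the treated knockout livers differ from treated livers that carry Optn. No saline-injected knockout was analysed here, so an effect of the allele alone cannot be told apart from an effect of the drug. The labels do not describe the allele, or say whether replicate numbers mark separate litters, so the p-values measure only the spread between these samples.

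Acetaminophen is cleared in hepatocytes mainly as glucuronide and sulfate. Cytochrome P450 enzymes, chiefly in the hepatocytes around the central vein, turn a share of it into a reactive quinone imine, which is taken up by glutathione and, once glutathione is spent, binds proteins of mitochondria and other compartments. The injury is known for strong kinase signalling through JNK, for death of pericentral hepatocytes and for an early entry of neutrophils and monocytes. Optn encodes optineurin, a receptor that binds ubiquitin on damaged mitochondria and recruits LC3 and the kinase TBK1, so that the mitochondria are taken into autophagosomes. Optineurin also acts in NF-kB and interferon signalling.

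The total count was 59143418 and 75856408 in the control libraries and 77292216 and 62531484 in the treated knockout libraries. Hepatocyte genes dominated every library, and the 10 hepatocyte markers summed to between 107593 and 139364 CPM (counts scaled to the library total) in these 4. The libraries differed in traces of other tissues, and skeletal muscle and goblet cell genes split them into 2 sets. For the models below, a library's set was the marker list, skeletal muscle or intestine, with the higher summed CPM in it. Skeletal muscle markers summed to 88.3 CPM in control replicate 3 and to 57.8 and 70.0 CPM in the treated wild-type libraries, against at most 1.01 CPM in control replicate 6 and both knockout libraries. The goblet cell genes Muc2, Clca1 and Zg16 had 313, 267 and 219 counts in control replicate 6, between 246 and 427 counts in the knockout libraries, and at most 4 counts in each of the other 3 libraries. These 3 genes were chosen after their values were seen, and not every listed intestine gene followed this split. Fabp2 was about level in both controls (2972 and 2920 counts), Tff3 had 117 counts in control replicate 3 and 649 and 676 in treated wild type, and the 12 intestine genes summed to 60.97 CPM in control replicate 3 and to between 73.7 and 79.7 CPM in control replicate 6 and the knockout libraries. Treated wild-type replicate 4, which enters the direct difference below, stood apart by neuron markers, with 118 CPM against 5.82 to 13.4 CPM in the other 5 libraries. Control replicate 6 also stood apart at Nnt, a mitochondrial transhydrogenase gene on chromosome 13 with 2 overlapping gene models in the table. There it had 8689 counts on one model and 0 on the other, where the other 5 libraries had 81 to 147 and 3944 to 4875 counts. The labels give no substrain of C57BL/6, and whether that of control replicate 6 differs was not tested. That mouse is the only control in every count without control replicate 3. Because only control replicate 6 shares the tissue traces of the knockout livers, a model with the set as a term compares both knockout livers with that 1 control. For the comparison with control it gives nearly the same calls as leaving out control replicate 3, and counts without that library are printed below with most gene groups.

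The targeted gene was measured first, since it checks the labels. Optn (ENSMUSG00000026672, chromosome 2, 5020642 to 5064045, minus strand, GRCm38) had an FPKM of 20.95 and 18.7 in controls, 9.17 and 9.19 in treated wild type and 0.316 and 0.457 in knockout livers (here and below, paired values are the 2 livers of a group in the order of the replicate numbers above, and are FPKM where no unit is given). Knockout values lay below all others, and the treated wild-type values lay below those of the controls. On the log2 scale the treated knockout differed from control by -5.49 ± 0.22 (± the standard error from edgeR's quasi-likelihood fit, 2 mice a group, edgeR adjusted p = 0.000396). It differed from treated wild type by -4.60 ± 0.21 (edgeR adjusted p = 0.00325). In treated wild type the difference from control was -0.89 ± 0.18 (edgeR adjusted p = 0.0258), so part of the fall relative to control also appears where the gene is intact.

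Of the 11693 genes, 1493 (12.8%) were higher and 991 (8.48%) were lower in treated knockout than in control livers at a Benjamini-Hochberg adjusted p under 0.05, together 21.2%. Groups did not overlap in CPM in 69.4% of genes. Treated knockout and treated wild type did not overlap in CPM in 39.0% of genes. The shares called are the background against which the gene groups below are read. A gene near 0 in controls was tested only if it was high in the knockout livers, since the expression limit takes the mean of both groups. Counts for groups of such genes are therefore tilted towards rises. Some genes belong to more than 1 group, so the group counts are not independent. Examples are Cd14 (acute phase proteins and monocyte markers) and Oat (pericentral and amino acid breakdown genes). Among the called genes, 507 were higher and 111 were lower by at least 4-fold (a log2 difference of 2). The median log2 difference over all genes was 0.00 with TMM scaling, and -0.19 when libraries were scaled by total count alone. The split of calls moved with that choice: 1167 higher and 1843 lower under total count alone, and 1192 higher and 1944 lower in limma on log2(FPKM + 0.5), so that the share of higher genes among the calls went from 60.1% with TMM scaling to 38.8% and 38.01%. No called gene changed its sign in any of the 15 other settings. Without control replicate 3 the calls numbered 755 higher and 329 lower, without knockout replicate 4 958 and 531, and without knockout replicate 5 600 and 261. The genes called higher took 6.28% and 7.06% of all counts in the controls and 17.2% and 16.9% in the treated knockout livers. For genes called lower these shares were 9.63% and 8.99% against 3.86% and 3.75%. Higher genes had a median FPKM of 1.58 in controls and 4.43 in knockout livers. Lower genes had medians of 6.82 and 2.81, and all genes tested 3.05 and 2.88. Sorting genes by the direction of their difference in part fixes these shares and medians, so they describe the called genes only.

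**Figure D1:**
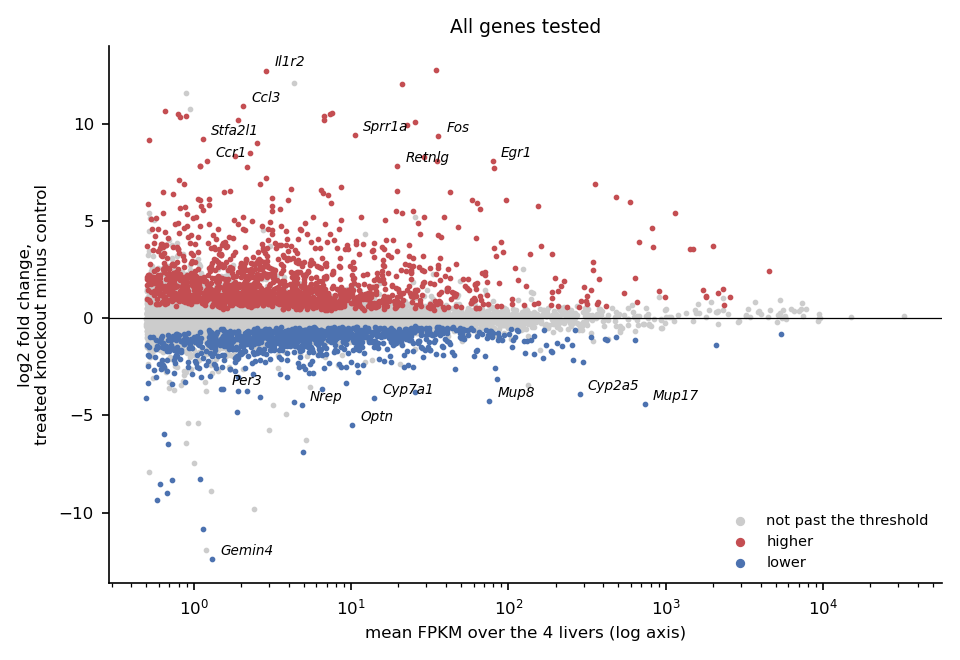
Each point is a gene, with its mean FPKM over the 2 control and 2 treated knockout livers (log axis) against its log2 difference between the groups. Red and blue mark the 1493 genes called higher and the 991 called lower, and the named points are the 8 largest rises and 8 largest falls under the naming rule.

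Genes known from leukocytes and from the early response to injury were among the largest rises. Il1r2, the decoy receptor for interleukin-1 carried by neutrophils, had 0 counts in both controls and 713 and 928 in the knockout livers. Taking 3 counts as the most that a count of 0 allows in each library, it was at least 267-fold higher. Ccl3, a chemokine that draws monocytes and neutrophils, went from 0 counts in both controls to 247 and 227, at least 75.6-fold higher. Stfa2l1, a stefin listed here among the neutrophil markers, went from 0 in both to 72 and 73, at least 23.3-fold higher. The chemokine receptor gene Ccr1 had 0 and 4 counts in controls and 528 and 505 in knockout livers. Sprr1a, a cornified envelope protein that other stressed cells also make, had 0 and 4 against 2315 and 428, with knockout replicate 4 the highest of all 6 livers. Retnlg, a resistin-like protein of neutrophils, had 16 and 0 counts against 1763 and 1727. Fos and Egr1, also among the 8 largest rises, are described with the immediate early genes. In treated wild type Il1r2 had 501 and 272 counts, Ccl3 316 and 14, Stfa2l1 29 and 41, Ccr1 307 and 135, and Sprr1a 328 and 728. Treated wild type and treated knockout share the same 2 controls, so their differences from control are not independent of each other. Ccl3 did not pass without control replicate 3, control replicate 6, knockout replicate 4 or knockout replicate 5 (edgeR adjusted p 0.110 to 0.131).

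Among the largest falls was Gemin4, a subunit of the SMN complex, with 715 and 707 counts in controls and 0 in both knockout livers, at least 247-fold lower. Treated wild-type livers had 4 and 0 counts of it. Nrep, a small neuronal regeneration-related protein, had an FPKM of 13.2 and 5.45 in controls, 0.560 and 0.597 in treated wild type and 0.452 and 0.289 in knockout livers, a log2 difference of -4.46 ± 0.51, edgeR adjusted p = 0.00385. The urinary protein genes Mup8 (179.9 and 108 in controls, 9.45 and 3.78 in knockout livers) and Mup17 (1535 and 1279.6 against 102 and 13.2) fell by log2 differences of -4.25 ± 0.54 and -4.40 ± 1.04. Mup genes are near-identical copies of one another, so how fragments were divided among them is uncertain. The remaining large falls, Cyp7a1, Cyp2a5 and Per3, are described with their groups. Mup17 did not pass without control replicate 3, control replicate 6 or knockout replicate 5 (edgeR adjusted p 0.0610 to 0.0860).

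**Figure D2:**
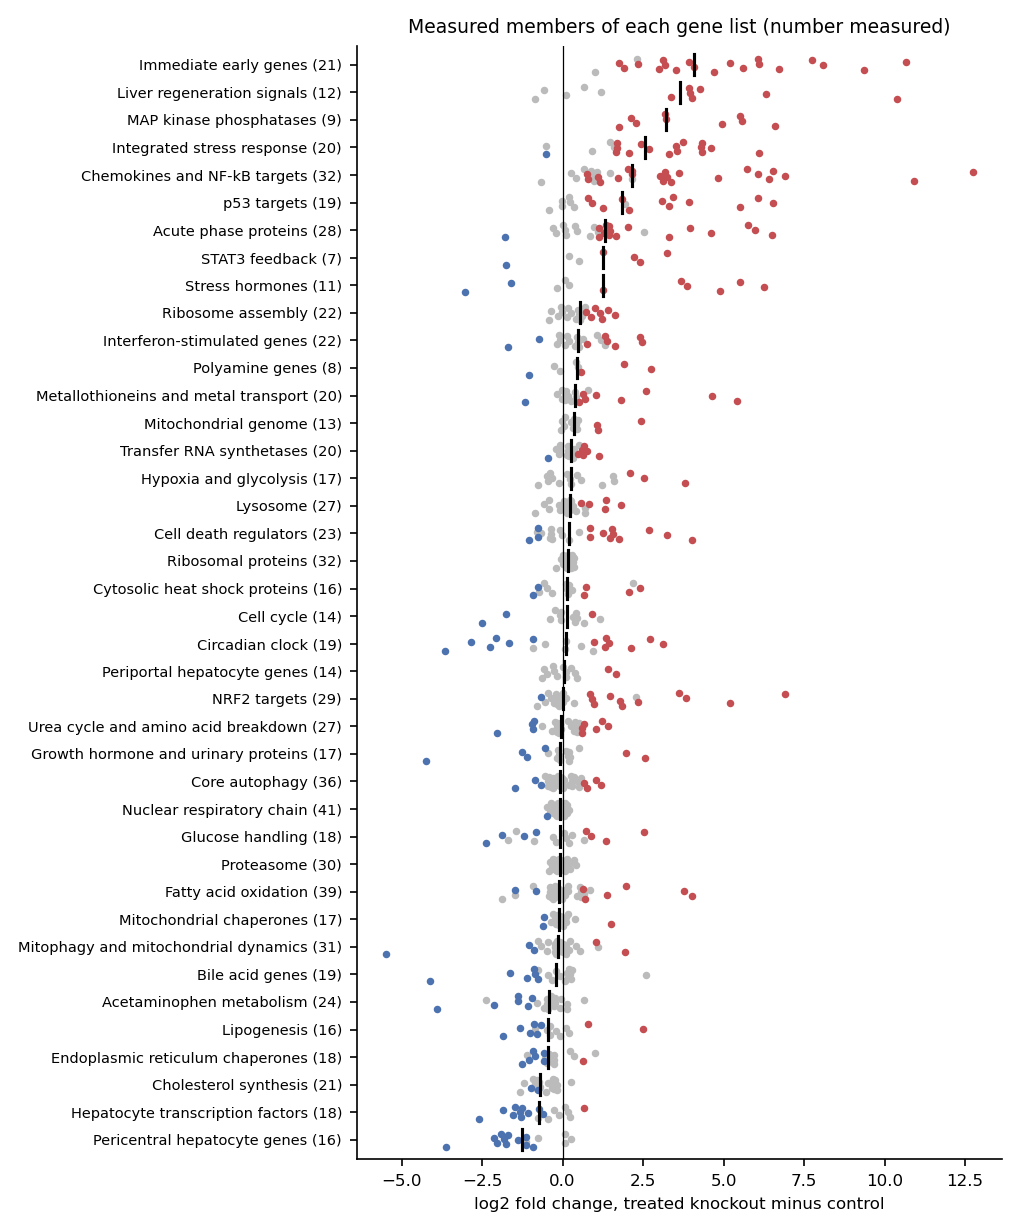
Each row is a gene list, each point a measured member placed at its log2 difference between treated knockout and control livers, and each black bar the list's median. Red and blue points passed the gene test, and immediate early genes (median 4.09) and pericentral hepatocyte genes (median -1.27) stand at the 2 ends.

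Promoters of 7 genes of the groups described below are printed, picked because each holds a motif searched here. They are the 250 bases before the start site of the gene in RefSeq on GRCm38.p6, read 5′ to 3′ on the gene's own strand, with the motif in capitals. The C/EBP-ATF element was searched as TGATGNAA on both strands, the cyclic AMP response element (CRE) as TGACGTCA and the E-box as CACGTG, both of which read the same on either strand. A match describes the letters only and says nothing of binding in these livers. Only the motif named for each gene is in capitals. Dusp1 also holds an unmarked E-box, and Dusp1, Asns and Per1 hold the antioxidant response element given below, also unmarked. The printed genes do not lead every group. Slc7a1 and Psat1 had the smallest edgeR p of the integrated stress response genes and hold 0 C/EBP-ATF elements. Dusp5 had the smallest edgeR p of the MAP kinase phosphatases and holds 0 CREs.
Atf3 (chr1:191183334-191183583, minus strand, C/EBP-ATF element on the other strand, 110 to 103 bases before the start): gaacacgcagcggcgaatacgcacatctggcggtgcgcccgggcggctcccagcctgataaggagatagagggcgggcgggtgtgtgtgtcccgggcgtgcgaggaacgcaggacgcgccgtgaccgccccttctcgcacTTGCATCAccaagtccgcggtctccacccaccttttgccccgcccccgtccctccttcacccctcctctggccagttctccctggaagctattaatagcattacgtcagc
Asns (chr6:7693210-7693459, minus strand, C/EBP-ATF element, 23 to 16 bases before the start): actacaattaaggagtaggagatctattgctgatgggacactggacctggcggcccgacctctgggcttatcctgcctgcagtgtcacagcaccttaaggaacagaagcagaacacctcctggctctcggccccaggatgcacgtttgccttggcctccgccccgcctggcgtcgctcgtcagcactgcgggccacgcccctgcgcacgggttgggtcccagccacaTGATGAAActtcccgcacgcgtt
Chac1 (chr2:119350992-119351241, plus strand, C/EBP-ATF element on the other strand, 193 to 186 bases before the start): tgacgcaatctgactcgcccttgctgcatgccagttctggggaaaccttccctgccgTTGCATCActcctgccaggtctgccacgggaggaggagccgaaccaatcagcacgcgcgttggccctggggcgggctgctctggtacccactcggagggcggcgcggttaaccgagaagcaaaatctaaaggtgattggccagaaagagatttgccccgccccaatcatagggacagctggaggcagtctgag
Btg2 (chr1:134079156-134079405, minus strand, CRE, 166 to 159 bases before the start): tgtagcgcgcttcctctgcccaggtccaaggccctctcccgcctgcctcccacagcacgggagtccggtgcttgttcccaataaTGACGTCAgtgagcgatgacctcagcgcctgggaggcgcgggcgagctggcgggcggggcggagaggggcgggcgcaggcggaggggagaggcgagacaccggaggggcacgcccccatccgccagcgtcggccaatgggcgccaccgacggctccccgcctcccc
Dusp1 (chr17:26508473-26508722, minus strand, CRE, 143 to 136 bases before the start): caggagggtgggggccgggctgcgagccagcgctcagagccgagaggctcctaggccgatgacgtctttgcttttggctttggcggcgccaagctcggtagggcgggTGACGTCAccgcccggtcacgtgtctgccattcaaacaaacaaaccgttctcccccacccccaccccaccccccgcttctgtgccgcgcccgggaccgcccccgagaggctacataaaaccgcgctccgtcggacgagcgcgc
Ppp1r15a (chr7:45526269-45526518, minus strand, CRE, 12 to 5 bases before the start): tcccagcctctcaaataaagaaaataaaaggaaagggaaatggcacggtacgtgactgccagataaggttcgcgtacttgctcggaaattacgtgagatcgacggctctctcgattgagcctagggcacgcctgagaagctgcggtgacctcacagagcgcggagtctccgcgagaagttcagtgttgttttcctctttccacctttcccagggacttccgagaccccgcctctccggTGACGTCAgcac
Per1 (chr11:69098699-69098948, plus strand, E-box, 166 to 161 bases before the start): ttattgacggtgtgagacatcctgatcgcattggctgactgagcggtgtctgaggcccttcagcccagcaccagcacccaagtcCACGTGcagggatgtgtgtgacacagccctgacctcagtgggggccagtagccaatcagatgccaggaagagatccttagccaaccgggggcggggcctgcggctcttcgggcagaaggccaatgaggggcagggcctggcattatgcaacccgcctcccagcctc
The C/EBP-ATF element was found in 3 of 19 promoters of measured integrated stress response genes with a RefSeq promoter, against 3.53% of all 27025 promoters in the table. The CRE was found in 1 of 16 promoters of immediate early genes and 2 of 8 of the MAP kinase phosphatases, against 1.62% of all. In the same 2 lists the AP-1 site (TGANTCA) was in 0 of 16 and 0 of 8 promoters, against 6.87% of all. The serum response element (10 bases) was in 2 of 16 and 1 of 8, against 1.40% of all. Of 15 clock gene promoters 5 held the E-box, against 6.05% of all. The E-box was also in 4 of 16 promoters of p53 targets and 2 of 8 of the MAP kinase phosphatases. The antioxidant response element (TGACNNNGC, both strands) was in 7 of 25 promoters of NRF2 target genes, against 10.2% of all. Among the promoters of genes tested here, the shares were 2.03% for the C/EBP-ATF element, 2.69% for the CRE, 8.55% for the E-box and 12.1% for the antioxidant response element. Within 100 bases before the start the C/EBP-ATF element was in 1 of 19 integrated stress response promoters (1.55% of all). There the CRE was in 0 of 16 early gene and 1 of 8 phosphatase promoters (1.23% of all). The E-box was in 2 of 15 clock promoters (3.18% of all) and the antioxidant element in 3 of 25 NRF2 target promoters (4.80% of all). These are small counts and carry no test.

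Immediate early genes, the transcription factors and regulators that kinase signalling switches on within minutes, rose nearly throughout. Of 21 measured members 19 were higher and 0 lower, with a median log2 difference of 4.09. The number was 18 without control replicate 3. Fos, a subunit of the AP-1 factor, had an FPKM of 0.130 and 0.104 in controls, 47.4 and 102 in treated wild type and 91.4 and 51.0 in knockout livers. The knockout livers differed from each other but both lay far above the controls, and the log2 difference was 9.38 ± 0.61, edgeR adjusted p = 0.000952. Its partner Jun had an FPKM of 3.48 and 2.52 in controls, 86.1 and 174 in treated wild type and 141 and 115 in knockout livers, with a log2 difference of 5.60 ± 0.41, edgeR adjusted p = 0.00124. Egr1, a zinc finger factor induced by growth factor signalling, went from 0.697 and 0.609 to 168 and 148 (log2 difference 8.10 ± 0.22, edgeR adjusted p = 0.000101). Atf3, whose promoter is printed above, is a repressor of the ATF family that is induced by amino acid and endoplasmic reticulum stress as well as by JNK. Its FPKM was 0.925 and 0.793 in controls, 160.4 and 171 in treated wild type and 172 and 152 in knockout livers, a log2 difference of 7.74 ± 0.19, edgeR adjusted p = 0.000101. The treated livers of both genotypes lay close together, and no control exceeded 1. Myc, a driver of ribosome production and growth, rose from 1.30 and 4.48 to 26.8 and 32.5 (log2 difference 3.54 ± 0.58, edgeR adjusted p = 0.0106). Btg2, an antiproliferative target of both p53 and the CRE-binding factors, rose from 2.54 and 3.86 to 174 and 206, a log2 difference of 6.07 ± 0.32, edgeR adjusted p = 0.000584. Myc did not pass without knockout replicate 5 (edgeR adjusted p = 0.0604).

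The dual-specificity phosphatases, which remove phosphate from JNK, p38 and ERK and are induced by the same kinases, all rose: 9 of 9, with a median log2 difference of 3.22. Their number was 7 without control replicate 3. Dusp5, which acts on ERK in the nucleus, had an FPKM of 0.116 and 0.174 in controls, 3.04 and 4.93 in treated wild type and 12.5 and 13.1 in knockout livers. Both knockout values exceeded both treated wild-type values, and all treated values exceeded the controls. The 2 treated groups did not overlap in CPM in 39.0% of all genes, so such an order, here or below, does not by itself set a gene apart. The log2 difference from control was 6.60 ± 0.34, edgeR adjusted p = 0.000584, and that from treated wild type was 1.65 ± 0.26 and did not pass (edgeR adjusted p = 0.181). Dusp4 showed the same order, 0.148 and 0.150 in controls, 3.29 and 2.16 in treated wild type and 6.06 and 6.18 in knockout livers, with a log2 difference from control of 5.50 ± 0.31, edgeR adjusted p = 0.000675. Dusp1, the broad MAP kinase phosphatase with the printed CRE promoter, went from 5.55 and 6.84 to 51.1 and 50.6 (log2 difference 3.22 ± 0.22, edgeR adjusted p = 0.000994). Dusp6, specific for ERK, went from 6.37 and 3.15 to 19.5 and 21.1, a log2 difference of 2.27 ± 0.34, edgeR adjusted p = 0.00798. Dusp6 did not pass without knockout replicate 5 (edgeR adjusted p = 0.0532).

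The integrated stress response is the set of genes that ATF4 and its partners switch on when translation initiation is slowed. Of 20 measured members 15 were higher and 1 lower, with a median log2 difference of 2.55, and the higher calls were 13 without control replicate 3. Atf4 itself, whose protein is controlled mainly at translation, had an FPKM of 26.0 and 37.8 in controls, 113 and 94.9 in treated wild type and 61.3 and 120.5 in knockout livers, a log2 difference of 1.69 ± 0.34, edgeR adjusted p = 0.0197. Ddit3 encodes CHOP, a pro-apoptotic partner of ATF4, and had an FPKM of 3.59 and 4.25 in controls, 80.6 and 83.6 in treated wild type and 82.3 and 53.2 in knockout livers. The control values were under 5 and the treated values over 50, with a log2 difference of 4.30 ± 0.26, edgeR adjusted p = 0.000846. Chac1, an enzyme that degrades glutathione, had an FPKM of 0.616 and 5.19 in controls, 63.7 and 73.6 in treated wild type and 62.1 and 41.3 in knockout livers. The controls differed widely from each other but lay below every treated liver, and the log2 difference was 4.34 ± 0.90, edgeR adjusted p = 0.0216. Genes that supply amino acids moved with them: 8 of 9 rose. Slc7a1, a cationic amino acid transporter, went from 0.0293 and 0.0409 to 2.37 and 1.93 FPKM (log2 difference 6.09 ± 0.26, edgeR adjusted p = 0.000399). Psat1, of serine synthesis, went from 0.219 and 0.297 to 5.50 and 5.87 (log2 difference 4.61 ± 0.21, edgeR adjusted p = 0.000428), and Asns, asparagine synthetase, rose by a log2 difference of 3.75 ± 0.37. Ppp1r15a, the phosphatase subunit that ends the response, rose by 2.67 ± 0.29 on the log2 scale. The 1 member called lower was Shmt2, a mitochondrial serine enzyme, at -0.51 ± 0.12 (named after its value was seen, as are all members below that are the few called in a direction). Atf4 did not pass without control replicate 3 or knockout replicate 5 (edgeR adjusted p 0.0691 to 0.0978). Chac1 did not pass without knockout replicate 4 or knockout replicate 5 (edgeR adjusted p 0.0747 to 0.0782). Shmt2 did not pass without any 1 of the 6 libraries (edgeR adjusted p 0.0526 to 0.162).

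Chaperones of the endoplasmic reticulum were called lower more often than higher. Of 18 measured members 1 was higher (Herpud1, log2 difference 0.63 ± 0.16) and 6 were lower, with a median of -0.44. Under total count alone these numbers were 0 and 12, so Herpud1 lost its call there. The lower calls numbered 2 without control replicate 3, 3 without control replicate 6 and 2 without knockout replicate 5. Creld2, a secreted target of the unfolded protein response, had an FPKM of 33.1 and 39.5 in controls, 13.4 and 11.9 in treated wild type and 14.9 and 11.4 in knockout livers, a log2 difference of -1.27 ± 0.20, edgeR adjusted p = 0.00914. Pdia4, a disulfide isomerase, went from 72.2 and 69.9 to 34.4 and 26.2 (log2 difference -1.04 ± 0.17, edgeR adjusted p = 0.0113). Hspa5, the main chaperone BiP, had 60.4 and 141 in the controls, which differed from each other more than the group means did, and 190.4 and 165 in the knockout livers, and did not pass (log2 difference 1.01 ± 0.37, edgeR adjusted p = 0.103). Herpud1 did not pass without any 1 of the 6 libraries (edgeR adjusted p 0.0625 to 0.181). Pdia4 did not pass without control replicate 3 (edgeR adjusted p = 0.0564).

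Secreted stress hormones changed in both directions. The rises were 6 of 11 measured members, 6 without control replicate 3, and the falls 2 (Inhba, an activin subunit, -3.04 ± 0.49, and the growth factor gene Fgf1, -1.60 ± 0.25), 2 without control replicate 3, 0 without knockout replicate 4 and 0 without knockout replicate 5. Igfbp1, a liver protein that binds insulin-like growth factors, had an FPKM of 12.1 and 16.2 in controls, 1032 and 843 in treated wild type and 835 and 1060.1 in knockout livers, a log2 difference of 6.25 ± 0.26, edgeR adjusted p = 0.000396. Gdf15, a hormone that suppresses appetite, went from 1.27 and 0.598 to 32.0 and 43.2 (log2 difference 5.51 ± 0.43, edgeR adjusted p = 0.00143). Fgf21, a hormone of fasting and stress, had an FPKM of 0.469 and 0.288 in controls, 5.12 and 11.04 in treated wild type and 13.2 and 6.36 in knockout livers. The treated livers of both genotypes overlapped, and all lay above the controls, with a log2 difference of 4.88 ± 0.60, edgeR adjusted p = 0.00470. Fst, the activin antagonist follistatin, had an FPKM of 0.238 and 0.191 in controls, 0.956 and 1.13 in treated wild type and 2.52 and 3.15 in knockout livers, with both knockout values above both treated wild-type values (log2 difference from control 3.85 ± 0.25, edgeR adjusted p = 0.000952; from treated wild type 1.39 ± 0.23, edgeR adjusted p = 0.188). Inhba and Fgf1 did not pass without knockout replicate 4 or knockout replicate 5 (edgeR adjusted p 0.0559 to 0.0697).

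Targets of NRF2, the factor that responds to electrophiles, rose in part. Of 29 measured members 11 were higher and 1 lower, with a median of 0.01, close to that of all genes. The higher calls were 6 without control replicate 3, 5 without control replicate 6 and 6 without knockout replicate 5. Hmox1, haem oxygenase, had an FPKM of 3.53 and 9.74 in controls, 671 and 611 in treated wild type and 625 and 779 in knockout livers, a log2 difference of 6.91 ± 0.55, edgeR adjusted p = 0.00143. Gclc, the catalytic subunit for glutathione synthesis, had an FPKM of 35.3 and 34.6 in controls, 60.5 and 134 in treated wild type and 85.1 and 138 in knockout livers, with treated livers of both genotypes spread over a similar range (log2 difference 1.85 ± 0.39, edgeR adjusted p = 0.0216). The small Maf gene Maff went from 1.92 and 1.54 to 47.9 and 64.5 (log2 difference 5.20 ± 0.28, edgeR adjusted p = 0.000584), and Bach1, a repressor of haem oxygenase, from 2.95 and 2.68 to 11.99 and 12.9 (log2 difference 2.33 ± 0.18, edgeR adjusted p = 0.00143). Nqo1, a quinone reductase often used as the reporter of NRF2, had 3.16 and 2.57 in controls and 1.19 and 1.73 in knockout livers and did not pass (log2 difference -0.79 ± 0.31, edgeR adjusted p = 0.125). The member called lower was Me1, malic enzyme, at -0.68 ± 0.15. Gclc did not pass without control replicate 3, control replicate 6 or knockout replicate 5 (edgeR adjusted p 0.0911 to 0.113). Me1 did not pass without control replicate 3, control replicate 6, knockout replicate 4 or knockout replicate 5 (edgeR adjusted p 0.0719 to 0.117).

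Cytosolic heat shock genes gave 4 higher and 2 lower of 16. The higher ones were Dnajb1, Hspb8, Hspa8 and Bag3, and their number was 1 without control replicate 3, 1 without control replicate 6, 1 without knockout replicate 4 and 2 without knockout replicate 5. The lower ones were Chordc1 and Ahsa1, co-chaperones of HSP90, with -0.91 ± 0.18 and -0.76 ± 0.13, and numbered 0 without control replicate 3, 1 without control replicate 6, 1 without knockout replicate 4 and 0 without knockout replicate 5. Dnajb1, which works with HSP70, had an FPKM of 8.33 and 8.95 in controls, 27.96 and 93.8 in treated wild type and 50.3 and 29.1 in knockout livers, a log2 difference of 2.39 ± 0.57, edgeR adjusted p = 0.0319. Hspb8, a small heat shock protein that acts with BAG3 in selective autophagy, went from 81.4 and 89.2 to 324 and 298 (log2 difference 2.05 ± 0.13, edgeR adjusted p = 0.000952). The inducible HSP70 gene Hspa1a, with 0.274 and 0.911 in controls and 1.40 and 3.38 in knockout livers, did not pass (log2 difference 2.18 ± 1.16, edgeR adjusted p = 0.230), and its near-identical neighbour copy makes its counts uncertain. Dnajb1, Bag3 and Chordc1 did not pass without control replicate 3, control replicate 6, knockout replicate 4 or knockout replicate 5 (edgeR adjusted p 0.0550 to 0.152). Hspa8 did not pass without control replicate 3, control replicate 6, treated wild-type replicate 1 or knockout replicate 4 (edgeR adjusted p 0.0502 to 0.114). Ahsa1 did not pass without control replicate 3 or knockout replicate 5 (edgeR adjusted p 0.0660 to 0.0705).

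Targets of p53, the factor that answers DNA damage, rose in 12 of 19 cases and fell in 0, with a median log2 difference of 1.84, and the number was 10 without control replicate 3. Cdkn1a, the cell cycle inhibitor p21, had an FPKM of 0.203 and 0.728 in controls, 43.4 and 29.6 in treated wild type and 36.4 and 41.4 in knockout livers, a log2 difference of 6.54 ± 0.62, edgeR adjusted p = 0.00241. The stress kinase gene Plk3 went from 15.3 and 20.03 to 171 and 163 (log2 difference 3.43 ± 0.19, edgeR adjusted p = 0.000584). Among 23 cell death regulators 10 were higher and 3 lower (among them Fadd, -1.03 ± 0.18, and Bid, -0.76 ± 0.17, which carry the death receptor signal). The lower calls were 0 without control replicate 3, 0 without control replicate 6, 1 without knockout replicate 4 and 0 without knockout replicate 5, and the higher calls 4 without control replicate 3, 5 without knockout replicate 4 and 3 without knockout replicate 5. Mcl1, which protects hepatocyte mitochondria, went from 22.4 and 23.3 to 53.8 and 65.0 FPKM (log2 difference 1.56 ± 0.13, edgeR adjusted p = 0.00175). Tnfrsf12a, the receptor for TWEAK, had an FPKM of 2.44 and 1.83 in controls, 21.2 and 17.8 in treated wild type and 25.8 and 36.3 in knockout livers (log2 difference 4.03 ± 0.26, edgeR adjusted p = 0.000920). Fadd did not pass without control replicate 3, control replicate 6 or knockout replicate 5 (edgeR adjusted p 0.0573 to 0.0747). Bid did not pass without control replicate 3, control replicate 6, knockout replicate 4 or knockout replicate 5 (edgeR adjusted p 0.0607 to 0.135).

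Metal-binding and transport genes were higher in 8 of 20 cases and lower in 1 (Slc40a1, the iron exporter ferroportin, -1.16 ± 0.16), with higher calls of 5 without control replicate 3, 5 without control replicate 6, 4 without knockout replicate 4 and 3 without knockout replicate 5. Mt1, a zinc-binding metallothionein, had an FPKM of 22.3 and 120.5 in controls, 1949 and 1881 in treated wild type and 1515 and 1594 in knockout livers. The controls differed widely, and all treated values lay far above them (log2 difference 4.64 ± 0.77, edgeR adjusted p = 0.0113). Slc39a14, a zinc and iron importer, went from 13.7 and 17.4 to 41.5 and 55.1 (log2 difference 1.81 ± 0.20, edgeR adjusted p = 0.00336). Id1, a target of bone morphogenetic protein signalling that also controls hepcidin, went from 2.27 and 1.797 to 10.5 and 11.3 (log2 difference 2.596 ± 0.26, edgeR adjusted p = 0.00274). Mt1 did not pass without knockout replicate 5 (edgeR adjusted p = 0.0579).

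The genes that metabolise acetaminophen fell where they changed. Of 24 measured members 0 rose and 6 fell, with a median of -0.41, and under total count alone 10 fell. The falls numbered 5 without control replicate 3, 3 without knockout replicate 4 and 3 without knockout replicate 5. They were 4 of 7 genes of bioactivation and 2 of 7 glutathione transferase genes, while 0 of 10 glucuronidation and sulfation genes passed. Cyp2e1, the P450 that contributes most to the quinone imine in mice, had an FPKM of 3293 and 2941 in controls, 1299 and 1789.6 in treated wild type and 1106 and 976 in knockout livers. Both knockout values lay below both treated wild-type values, which lay below the controls. The log2 difference from control was -1.40 ± 0.20, edgeR adjusted p = 0.00711, and that from treated wild type -0.60 ± 0.20 (edgeR adjusted p = 0.509). Cyp1a2, a second bioactivating enzyme, had an FPKM of 533 and 319.9 in controls, 136 and 261 in treated wild type and 82.1 and 90.5 in knockout livers, in the same order (log2 difference -2.12 ± 0.37, edgeR adjusted p = 0.0124). Cyp2a5 fell most, with an FPKM of 651 and 419 in controls, 95.8 and 143 in treated wild type and 27.9 and 34.8 in knockout livers. That is a log2 difference of -3.92 ± 0.31, edgeR adjusted p = 0.00143, and of -1.96 ± 0.29 from treated wild type, which did not pass (edgeR adjusted p = 0.172). Gsta3, a glutathione transferase, went from 274 and 242 to 78.2 and 97.7 (log2 difference -1.37 ± 0.16, edgeR adjusted p = 0.00385). Cyp2e1 did not pass without knockout replicate 5 (edgeR adjusted p = 0.0510). Cyp1a2 did not pass without knockout replicate 4 or knockout replicate 5 (edgeR adjusted p 0.0724 to 0.0817).

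Genes of pericentral hepatocytes, where Wnt signalling is strong and bioactivation takes place, had the lowest median of the 40 gene lists (-1.27). Of 16 measured members 11 fell and 0 rose, and the falls numbered 7 without control replicate 3, 5 without knockout replicate 4 and 4 without knockout replicate 5. Glul, glutamine synthetase of the last cell layer around the central vein, had an FPKM of 236 and 226 in controls, 59.7 and 95.0 in treated wild type and 64.8 and 50.6 in knockout livers, a log2 difference of -1.81 ± 0.25, edgeR adjusted p = 0.00615. Oat, ornithine aminotransferase, went from 315 and 230.5 to 59.4 and 57.4 (log2 difference -2.04 ± 0.24, edgeR adjusted p = 0.00419). Lect2, a secreted Wnt target, had an FPKM of 108 and 85.8 in controls, 47.3 and 67.6 in treated wild type and 27.5 and 25.5 in knockout livers, with both knockout values below both treated wild-type values (log2 difference from control -1.69 ± 0.21, edgeR adjusted p = 0.00482; from treated wild type -1.15 ± 0.21, edgeR adjusted p = 0.244). In bulk tissue, fewer cells of a type and less RNA per cell cannot be told apart. Of the 14 periportal genes 2 rose (Sds 1.42 ± 0.31 and Apoa4 1.67 ± 0.27) and 0 fell, with a median of 0.05. Under total count alone 3 of them were lower. Rises numbered 1 without control replicate 3, 1 without control replicate 6 and 1 without knockout replicate 5. Apoa4, an apolipoprotein of very low density particles, had an FPKM of 125 and 102 in controls, 103 and 102 in treated wild type and 393 and 240.1 in knockout livers and so was high in the knockout livers alone, but its difference from treated wild type (1.59 ± 0.27) did not pass (edgeR adjusted p = 0.196). Sds did not pass without control replicate 3 or knockout replicate 5 (edgeR adjusted p 0.103 to 0.110). Apoa4 did not pass without control replicate 6 (edgeR adjusted p = 0.0505).

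Genes under growth hormone control, most of them urinary proteins and other sex-biased liver genes, were higher in 2 (Selenbp2, 2.57 ± 0.41, and Elovl3, 1.96 ± 0.26) and lower in 4 of 17 cases, with falls of 1 without control replicate 3, 1 without control replicate 6, 2 without treated wild-type replicate 1, 2 without treated wild-type replicate 4 and 2 without knockout replicate 5. The lower ones were Mup8 above, Igfals (-1.25 ± 0.30), Hsd3b5 (-1.11 ± 0.26) and the receptor gene Ghr (-0.54 ± 0.13). Transcription factors of hepatocyte identity were lower in 10 of 18 cases and higher in 1, with a median of -0.75. Their falls numbered 5 without control replicate 3, 6 without control replicate 6, 6 without knockout replicate 4 and 3 without knockout replicate 5. The factor that rose was Hnf4a, from 92.4 and 117 to 134 and 162 FPKM (log2 difference 0.68 ± 0.17, edgeR adjusted p = 0.0362), and its call was absent under total count alone. Nr1i3, the drug-sensing receptor CAR, had an FPKM of 57.0 and 54.4 in controls, 10.1 and 9.22 in treated wild type and 13.2 and 13.8 in knockout livers, with every treated liver far below both controls (log2 difference -1.86 ± 0.13, edgeR adjusted p = 0.00111). Foxa3, a pioneer factor, went from 30.6 and 32.1 to 13.6 and 12.6 (log2 difference -1.08 ± 0.12, edgeR adjusted p = 0.00399). Cebpa, a factor of mature hepatocytes, had 88.2 and 94.6 in controls and 74.9 and 58.9 in knockout livers and did not pass (log2 difference -0.26 ± 0.26, edgeR adjusted p = 0.501). Igfals did not pass without control replicate 3, control replicate 6, treated wild-type replicate 1 or treated wild-type replicate 4 (edgeR adjusted p 0.0553 to 0.108). Hsd3b5 did not pass without control replicate 3, control replicate 6, treated wild-type replicate 1, treated wild-type replicate 4 or knockout replicate 5 (edgeR adjusted p 0.0501 to 0.124). Ghr did not pass without control replicate 3, control replicate 6, knockout replicate 4 or knockout replicate 5 (edgeR adjusted p 0.0789 to 0.129). Hnf4a did not pass without any 1 of the 6 libraries (edgeR adjusted p 0.0588 to 0.175).

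**Figure D3:**
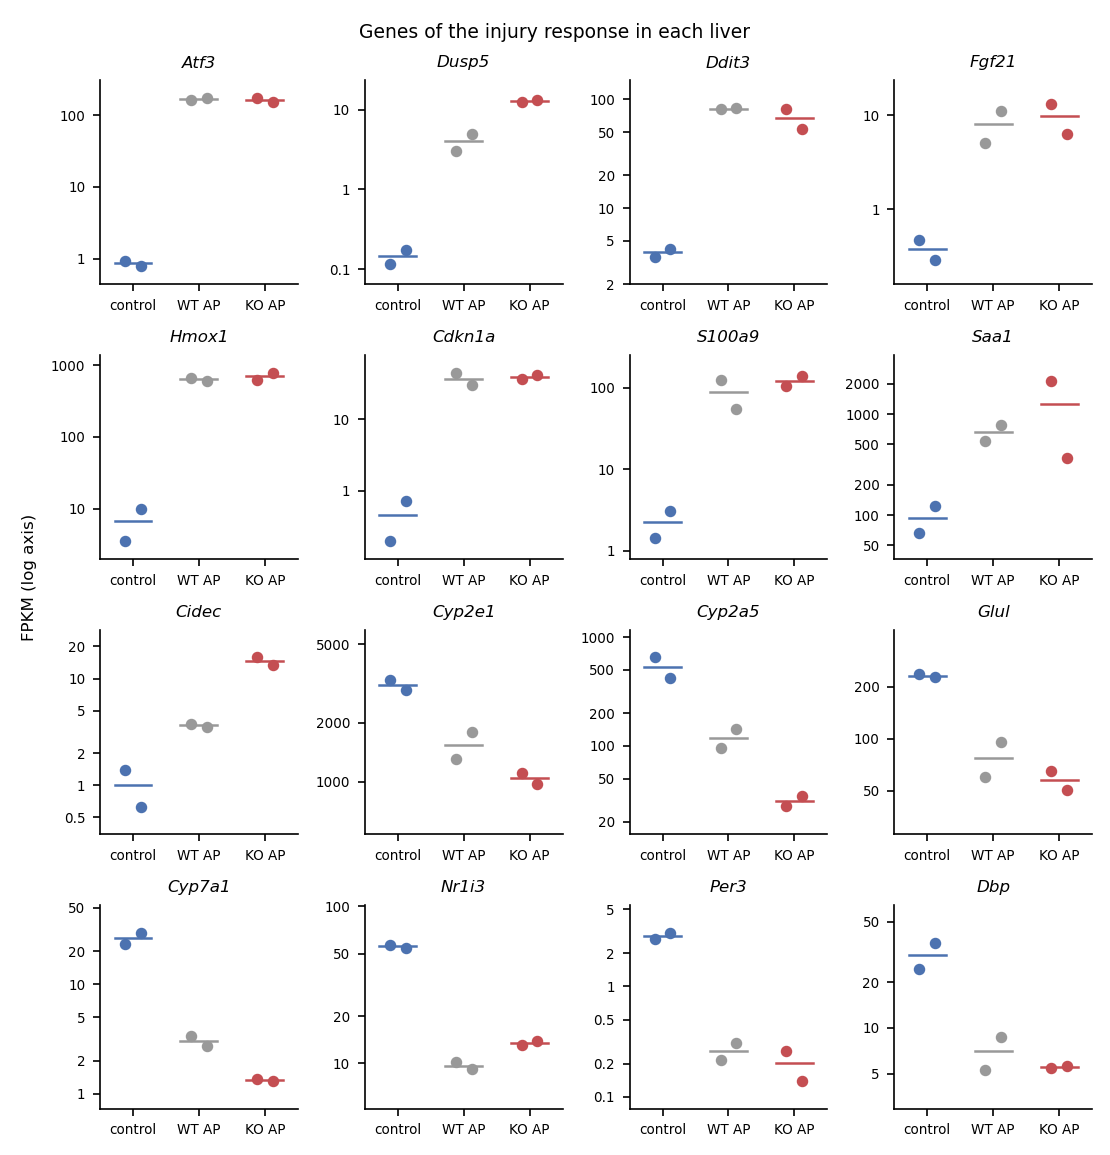
FPKM (log axes, 1 panel a gene) of 16 genes in control, treated wild-type (WT AP) and treated knockout (KO AP) livers, with a point for each liver and a line at each group's mean. Stress and inflammatory genes such as Atf3 and S100a9 stand higher in all treated livers, and P450, pericentral and clock output genes such as Cyp2a5, Glul and Dbp stand lower.

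Bile acid genes were lower in 6 of 19 cases and higher in 0, with falls numbering 4 without control replicate 3 and 3 without knockout replicate 4. Cyp7a1, which controls the rate of bile acid synthesis, had an FPKM of 23.3 and 29.7 in controls, 3.34 and 2.71 in treated wild type and 1.38 and 1.31 in knockout livers. Both knockout values lay below both treated wild-type values, and all lay below the controls. The log2 difference was -4.11 ± 0.21, edgeR adjusted p = 0.000584 from control and -1.21 ± 0.19 from treated wild type (edgeR adjusted p = 0.179). Slco1a1, an uptake transporter, had an FPKM of 29.9 and 36.5 in controls, 26.9 and 27.9 in treated wild type and 13.1 and 14.1 in knockout livers. Its treated wild-type values lay close to the controls, and the log2 difference was -1.10 ± 0.13, edgeR adjusted p = 0.00449 from control and -1.05 ± 0.13 from treated wild type, the latter not past the threshold (edgeR adjusted p = 0.106). Nr0b2, the bile acid responsive repressor SHP, had 37.0 and 22.7 in controls and 17.2 and 13.8 in knockout livers and did not pass (log2 difference -0.76 ± 0.35, edgeR adjusted p = 0.175).

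Of 39 genes of fatty acid oxidation and lipid droplets 6 were higher and 2 lower, with a median of -0.10, close to the background. Under total count alone the numbers were 4 and 5. The higher calls were 3 without control replicate 3, 3 without control replicate 6 and 3 without knockout replicate 5. The lower ones were Acot4 (-1.49 ± 0.36), a thioesterase, and Fabp1 (-0.82 ± 0.21), which carries fatty acids in the cytosol, and numbered 0 without control replicate 3, 1 without knockout replicate 4 and 0 without knockout replicate 5. In treated wild type 3 of these genes were higher and 12 lower than in control (8.88% and 6.36% of all genes were), with a median of -0.45. Lipid droplet genes were among the rises. Cidec, which fuses lipid droplets, had an FPKM of 1.40 and 0.630 in controls, 3.78 and 3.52 in treated wild type and 15.9 and 13.4 in knockout livers, a log2 difference of 4.03 ± 0.41, edgeR adjusted p = 0.00284. Its difference from treated wild type, 1.96 ± 0.37, did not pass (edgeR adjusted p = 0.262), while the other 5 of the 6 adipose markers had at most 12 counts in either knockout liver. Of these Adipoq had 0 counts in both controls and 12 in each knockout liver, while Cfd had 209 and 51 counts in controls against 6 and 0 in knockout livers. The part of adipose tissue in the Cidec values was not tested. Plin2, a coat protein of lipid droplets in hepatocytes, went from 55.7 and 46.8 to 171 and 185 (log2 difference 1.98 ± 0.16, edgeR adjusted p = 0.00143). The microsomal omega-hydroxylases Cyp4a10 and Cyp4a14 are described with the direct difference below. Acot4 did not pass without control replicate 3, knockout replicate 4 or knockout replicate 5 (edgeR adjusted p 0.132 to 0.152). Fabp1 did not pass without control replicate 3, treated wild-type replicate 1, treated wild-type replicate 4, knockout replicate 4 or knockout replicate 5 (edgeR adjusted p 0.0736 to 0.180).

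Lipogenesis genes fell in part, with a median of -0.44. The share of cholesterol synthesis genes called lower (9.52%) was near the 8.48% over all genes, though their median was lower, at -0.71. With total count alone, and with DESeq2, 5 of the 21 cholesterol synthesis genes were lower. Of 16 genes of lipogenesis and its control 6 were lower and 2 higher (Insig2 and Elovl5), and under total count alone 10 were lower and 2 higher. The falls numbered 2 without control replicate 3, 3 without control replicate 6 and 2 without knockout replicate 5, and the rises 2 without control replicate 3, 1 without control replicate 6, 1 without knockout replicate 4 and 1 without knockout replicate 5. Srebf1, the sterol response factor that drives these genes, had an FPKM of 26.6 and 32.8 in controls, 13.4 and 13.8 in treated wild type and 13.05 and 12.8 in knockout livers, a log2 difference of -1.02 ± 0.14, edgeR adjusted p = 0.00621. Fasn, fatty acid synthase, went from 33.6 and 22.1 to 11.04 and 8.39 (log2 difference -1.33 ± 0.27, edgeR adjusted p = 0.0199), and Elovl6, an elongase, from 11.9 and 8.44 to 2.57 and 2.37 (log2 difference -1.86 ± 0.20, edgeR adjusted p = 0.00336). Insig2, which retains the sterol sensor in the endoplasmic reticulum, rose from 9.57 and 9.25 to 46.5 and 46.9 (log2 difference 2.49 ± 0.20, edgeR adjusted p = 0.00143). Cholesterol synthesis gave 2 lower (among them Sc5d, -0.76 ± 0.17) and 0 higher of 21, with a median of -0.71, and the falls numbered 0 without control replicate 3, 4 without control replicate 6, 1 without knockout replicate 4 and 0 without knockout replicate 5. Elovl5 did not pass without control replicate 6, knockout replicate 4 or knockout replicate 5 (edgeR adjusted p 0.0910 to 0.109). Fasn and Sc5d did not pass without control replicate 3, knockout replicate 4 or knockout replicate 5 (edgeR adjusted p 0.0502 to 0.129).

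Glucose handling genes moved both ways, 4 higher and 4 lower of 18. The higher calls were 2 without control replicate 3 and 2 without knockout replicate 5. Ppp1r3b, which targets a phosphatase to glycogen, had an FPKM of 39.9 and 39.0 in controls, 11.05 and 8.79 in treated wild type and 6.25 and 7.01 in knockout livers, with the knockout values lowest (log2 difference -2.39 ± 0.17, edgeR adjusted p = 0.00113). Pklr, liver pyruvate kinase, went from 58.8 and 64.7 to 15.5 and 13.8 (log2 difference -1.89 ± 0.15, edgeR adjusted p = 0.00137). The glucose transporter gene Slc2a2 and the glycogen synthase gene Gys2 were the other falls (-1.19 ± 0.13 and -0.84 ± 0.17). Irs2, the main insulin receptor substrate of liver, rose from 0.911 and 0.592 to 3.89 and 3.82 (log2 difference 2.54 ± 0.28, edgeR adjusted p = 0.00366), and the other rises were Foxo3 (1.33 ± 0.19), Foxo1 (0.88 ± 0.16) and Pcx (0.73 ± 0.19). Pck1, of gluconeogenesis, had 692 and 979 in controls and 589.6 and 615 in knockout livers and did not pass (log2 difference -0.29 ± 0.19, edgeR adjusted p = 0.338). Among 17 hypoxia and glycolysis genes the 3 rises were Adm, Ndrg1 and Pkm (3 without control replicate 3). Adm, the vessel-dilating peptide adrenomedullin, went from 0.317 and 0.838 to 7.45 and 6.92 (log2 difference 3.79 ± 0.49, edgeR adjusted p = 0.00532). Gys2 did not pass without control replicate 3, knockout replicate 4 or knockout replicate 5 (edgeR adjusted p 0.0629 to 0.101). Foxo1 did not pass without control replicate 3 or knockout replicate 5 (edgeR adjusted p 0.0781 to 0.0798). Pcx did not pass without any 1 of the 6 libraries (edgeR adjusted p 0.0629 to 0.189).

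Of 27 urea cycle and amino acid breakdown genes 6 were higher and 4 lower, with higher calls of 1 without control replicate 3, 2 without control replicate 6, 3 without treated wild-type replicate 1, 3 without treated wild-type replicate 4, 3 without knockout replicate 4 and 2 without knockout replicate 5, and lower calls of 4 without control replicate 3 and 2 without knockout replicate 5. Sds, serine dehydratase, had an FPKM of 93.6 and 153 in controls, 409.7 and 384 in treated wild type and 216 and 366 in knockout livers (log2 difference 1.42 ± 0.31, edgeR adjusted p = 0.0251), and its neighbour gene Sdsl went from 5.60 and 7.34 to 13.1 and 13.7 (log2 difference 1.23 ± 0.18, edgeR adjusted p = 0.00721). Among the falls were Oat, Prodh (-0.91 ± 0.13) and Nags (-0.89 ± 0.14), which handle ornithine, proline and the activator of the urea cycle. Cytosolic transfer RNA synthetases, several of which are ATF4 targets, gave 6 higher and 1 lower (Dars, -0.47 ± 0.12) of 20, with higher calls of 1 without control replicate 3, 3 without control replicate 6, 3 without treated wild-type replicate 4, 2 without knockout replicate 4 and 1 without knockout replicate 5 and 2 under total count alone. Gars, glycyl-tRNA synthetase, had an FPKM of 11.2 and 10.9 in controls, 21.7 and 21.4 in treated wild type and 21.3 and 21.4 in knockout livers. The treated livers of both genotypes were nearly level (log2 difference 1.13 ± 0.12, edgeR adjusted p = 0.00299). Of 8 polyamine genes 3 rose and 1 fell, with rises of 1 without control replicate 3, 1 without knockout replicate 4 and 1 without knockout replicate 5. Sat1, the enzyme that breaks polyamines down, rose from 10.995 and 9.79 to 59.6 and 62.1 (log2 difference 2.73 ± 0.16, edgeR adjusted p = 0.000686), and Srm, spermidine synthase, fell from 24.5 and 33.7 to 12.7 and 11.99 (log2 difference -1.05 ± 0.18, edgeR adjusted p = 0.0113). Sds did not pass without control replicate 3 or knockout replicate 5 (edgeR adjusted p 0.103 to 0.110). Nags and Srm did not pass without knockout replicate 5 (edgeR adjusted p 0.0616 to 0.0734). Dars did not pass without any 1 of the 6 libraries (edgeR adjusted p 0.0602 to 0.177).

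Circadian clock genes moved in both directions. Of 19 measured members 7 were higher and 6 lower. The higher calls were 5 without control replicate 3 and 4 without knockout replicate 5 and the lower calls 5 without control replicate 3. Nr1d1, the repressor REV-ERB alpha, had an FPKM of 7.60 and 9.66 in controls, 53.7 and 85.9 in treated wild type and 69.0 and 61.6 in knockout livers, a log2 difference of 3.11 ± 0.25, edgeR adjusted p = 0.00153. Per1, whose E-box promoter is printed above and which stress signals also induce, had an FPKM of 5.12 and 6.17 in controls, 8.13 and 8.96 in treated wild type and 12.02 and 14.7 in knockout livers, with the knockout values highest (log2 difference from control 1.43 ± 0.15, edgeR adjusted p = 0.00322; from treated wild type 0.61 ± 0.15, edgeR adjusted p = 0.412). Per3 had an FPKM of 2.70 and 3.06 in controls, 0.214 and 0.309 in treated wild type and 0.261 and 0.140 in knockout livers, a log2 difference of -3.64 ± 0.37, edgeR adjusted p = 0.00281. Dbp, a clock output factor that drives P450 genes, had an FPKM of 24.5 and 36.0 in controls, 5.26 and 8.77 in treated wild type and 5.48 and 5.61 in knockout livers (log2 difference -2.26 ± 0.28, edgeR adjusted p = 0.00475). Per1 and Per3 thus lay on opposite sides of their control values in both knockout livers. The hour of day at which each liver was taken is not given in the sources used here, and its part in these values was not tested.

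Positive acute phase proteins, which hepatocytes secrete under interleukin-6 and interleukin-1, were higher in 15 of 20 cases and lower in 0. For the whole list of 28 acute phase genes the number was 8 without control replicate 3. Fgg, a fibrinogen chain, had an FPKM of 1196 and 1479 in controls, 3415 and 3623 in treated wild type and 3255 and 3319.6 in knockout livers (log2 difference 1.48 ± 0.16, edgeR adjusted p = 0.00351). Saa1, serum amyloid A, had an FPKM of 65.9 and 122 in controls, 545 and 774 in treated wild type and 2142 and 371 in knockout livers. The knockout livers were the highest and the lowest of the treated ones, and all treated values exceeded the controls (log2 difference 3.95 ± 0.85, edgeR adjusted p = 0.0241). Lcn2, an iron-sequestering lipocalin, went from 3.38 and 9.28 to 431 and 171 (log2 difference 5.77 ± 0.72, edgeR adjusted p = 0.00471). Steap4, a metalloreductase, went from 42.0 and 37.1 to 367 and 314 (log2 difference 3.29 ± 0.17, edgeR adjusted p = 0.000584). Of 8 negative acute phase proteins, which include albumin, 1 was lower (Serpina6, the corticosteroid-binding globulin, -1.79 ± 0.28). STAT3 feedback genes gave 4 higher and 1 lower (Cish, -1.77 ± 0.30) of 7, with rises of 4 without control replicate 3. Socs3, the feedback inhibitor of interleukin-6 signalling, had an FPKM of 1.92 and 5.44 in controls, 21.01 and 26.7 in treated wild type and 30.6 and 30.3 in knockout livers (log2 difference 3.23 ± 0.47, edgeR adjusted p = 0.00731). Saa1 did not pass without control replicate 3 or control replicate 6 (edgeR adjusted p 0.0721 to 0.117). Cish did not pass without knockout replicate 4 (edgeR adjusted p = 0.0590).

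Chemokines, cytokines and NF-kB targets rose in 22 of 32 cases and fell in 0, with a median log2 difference of 2.15. This number depended on single libraries: 10 without control replicate 3, 13 without control replicate 6, 10 without knockout replicate 4 and 8 without knockout replicate 5. Ccl2, which draws monocytes through CCR2, had 0 and 23 counts in controls, 338 and 115 in treated wild type and 610 and 710 in knockout livers (log2 difference 6.08 ± 1.17, edgeR adjusted p = 0.0175). Cxcl1, which draws neutrophils, had an FPKM of 2.51 and 5.32 in controls, 18.0 and 55.7 in treated wild type and 25.7 and 30.1 in knockout livers (log2 difference 3.01 ± 0.59, edgeR adjusted p = 0.0177). Il1b went from 0.576 and 0.524 to 4.65 and 5.58 (log2 difference 3.37 ± 0.69, edgeR adjusted p = 0.0206) and Cxcl10, an interferon-inducible chemokine, from 1.14 and 1.61 to 16.6 and 13.3 (log2 difference 3.62 ± 0.32, edgeR adjusted p = 0.00193). Interferon-stimulated genes gave 6 higher and 2 lower (among them Igtp, -1.69 ± 0.19) of 22, with higher calls of 1 without control replicate 3, 1 without knockout replicate 4 and 1 without knockout replicate 5, and lower calls of 2 without control replicate 3, 1 without control replicate 6, 1 without knockout replicate 4 and 1 without knockout replicate 5. Ccl2 did not pass without knockout replicate 4 or knockout replicate 5 (edgeR adjusted p 0.0583 to 0.0858). Cxcl1 did not pass without control replicate 3, knockout replicate 4 or knockout replicate 5 (edgeR adjusted p 0.0608 to 0.0846). Il1b did not pass without control replicate 3, control replicate 6, knockout replicate 4 or knockout replicate 5 (edgeR adjusted p 0.0667 to 0.0920).

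Markers of blood cells rose, and few markers of Kupffer cells and sinusoidal endothelium passed. Of 12 listed neutrophil markers 10 reached the expression limit, and of 8 listed monocyte markers 5. A marker near 0 in controls reached it only if it was high in the knockout livers, which tilts these counts towards rises. The CPM sums take all listed markers. Neutrophil markers rose in 9 of 10 measured cases (9 without control replicate 3), and the 12 listed markers summed to 2.502 and 6.63 CPM in controls, 156 and 76.8 CPM in treated wild type and 165 and 212 CPM in knockout livers. S100a9, a calcium-binding protein, had an FPKM of 1.42 and 3.06 in controls, 125 and 55.8 in treated wild type and 105 and 141 in knockout livers (log2 difference 5.93 ± 0.58, edgeR adjusted p = 0.00262). Monocyte markers rose in 5 of 5 cases (5 without control replicate 3), with sums of 5.06 and 11.3 CPM in controls, 123 and 74.95 CPM in treated wild type and 233 and 192 CPM in knockout livers. Chil3, a chitinase-like protein of monocytes and macrophages, had an FPKM of 0.107 and 0.0814 in controls, 1.73 and 1.40 in treated wild type and 5.78 and 6.57 in knockout livers. Both knockout values exceeded both treated wild-type values, with a log2 difference of 6.17 ± 0.33, edgeR adjusted p = 0.000584 from control and 1.93 ± 0.26 from treated wild type (edgeR adjusted p = 0.124). Red cell markers summed to 700 and 1109 CPM in controls, 9382 and 3962 CPM in treated wild type and 8458 and 8927 CPM in knockout livers, and 5 of 5 rose (4 without control replicate 3). Hbb-bs, a beta-globin gene with a near-identical neighbour, went from 228 and 405 to 3471 and 3868 FPKM (log2 difference 3.72 ± 0.45, edgeR adjusted p = 0.00420). Among lymphocyte markers 1 of 3 T and NK cell genes (Gzma, 2.59 ± 0.53) and 1 of 3 B cell genes (Ighm, 0.92 ± 0.19) rose. Each number became 0 without either control or either knockout library. Platelet markers rose in 3 of 4 cases (4 without control replicate 3), led by Pf4, platelet factor 4, from 0.515 and 0.441 to 7.63 and 7.14 (log2 difference 4.07 ± 0.39, edgeR adjusted p = 0.00239). The part that blood held in the tissue has in these values was not tested. Gzma and Ighm did not pass without control replicate 3, control replicate 6, knockout replicate 4 or knockout replicate 5 (edgeR adjusted p 0.0573 to 0.103).

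Among markers of resident cells, the shares called higher were 12.5% for Kupffer cells and 11.1% for sinusoidal endothelium, near the 12.8% over all genes. The counts of all these marker lists depended on single libraries. Of 8 Kupffer cell markers 1 rose, Marco, a scavenger receptor, from 1.42 and 3.40 to 45.8 and 23.6 FPKM (log2 difference 4.04 ± 0.53, edgeR adjusted p = 0.00582). Leaving out 1 library moved that count to 1 without control replicate 3 and 7 without control replicate 6. Of 9 sinusoidal endothelial markers 1 rose, Lyve1, from 0.612 and 1.71 to 6.32 and 9.22 (log2 difference 2.92 ± 0.48, edgeR adjusted p = 0.0111), with 1 without control replicate 3, 2 without control replicate 6 and 0 without knockout replicate 5. Stellate cell markers rose in 4 of 8 cases (Dcn, Ecm1, Col1a1 and Col3a1), 2 without control replicate 3, 2 without knockout replicate 4 and 1 without knockout replicate 5. Dcn, the matrix proteoglycan decorin, had an FPKM of 9.28 and 12.5 in controls, 18.4 and 14.4 in treated wild type and 26.3 and 29.5 in knockout livers (log2 difference 1.54 ± 0.20, edgeR adjusted p = 0.00590). Lrat, which stores retinol in quiescent stellate cells, fell from 1.46 and 1.41 to 0.432 and 0.442 (log2 difference -1.53 ± 0.24, edgeR adjusted p = 0.00937). Sox9, a bile duct factor that injured hepatocytes also switch on, had an FPKM of 0.376 and 0.519 in controls, 5.34 and 2.94 in treated wild type and 9.53 and 8.75 in knockout livers (log2 difference 4.53 ± 0.37, edgeR adjusted p = 0.00152), and Spp1, osteopontin, had an FPKM of 14.7 and 15.8 in controls, 38.2 and 23.9 in treated wild type and 28.6 and 45.4 in knockout livers (log2 difference 1.46 ± 0.30, edgeR adjusted p = 0.0213). Bile duct markers were higher in 2 of 4 cases, 1 without control replicate 3, 1 without control replicate 6 and 1 without knockout replicate 5. The duct keratin gene Krt19 had 108 and 404 counts in controls and 369 and 461 in knockout livers, moving with the intestinal traces described above. Lyve1, Ecm1 and Lrat did not pass without knockout replicate 5 (edgeR adjusted p 0.0604 to 0.0650). Col1a1 did not pass without control replicate 3, control replicate 6, knockout replicate 4 or knockout replicate 5 (edgeR adjusted p 0.0729 to 0.154). Col3a1 did not pass without control replicate 3, treated wild-type replicate 1, treated wild-type replicate 4, knockout replicate 4 or knockout replicate 5 (edgeR adjusted p 0.0501 to 0.126). Spp1 did not pass without control replicate 3, control replicate 6 or knockout replicate 5 (edgeR adjusted p 0.0796 to 0.104).

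Growth factor and wound genes were higher in 7 of 12 cases and lower in 0 (7 without control replicate 3). Ccn2, a matricellular target of YAP, had an FPKM of 0.998 and 1.94 in controls, 6.68 and 9.03 in treated wild type and 18.1 and 22.2 in knockout livers, with both knockout values above both treated wild-type values (log2 difference from control 3.95 ± 0.34, edgeR adjusted p = 0.00188; from treated wild type 1.32 ± 0.31, edgeR adjusted p = 0.370). In the cell cycle list the rises were 0 without control replicate 3, 0 without control replicate 6, 0 without knockout replicate 4 and 0 without knockout replicate 5 and the falls 2 without control replicate 3. With all libraries cell cycle genes had 1 higher (Ccne1, 0.91 ± 0.25) and 2 lower of 14 measured and 28 listed, the rest being below the expression limit. The lower ones were Mcm10, a replication factor whose gene lies close to Optn, with an FPKM of 9.28 and 6.81 in controls, 1.27 and 1.52 in treated wild type and 1.45 and 1.02 in knockout livers (log2 difference -2.51 ± 0.26, edgeR adjusted p = 0.00293), and the cyclin D1 gene Ccnd1, from 8.12 and 9.04 to 2.69 and 1.78 (log2 difference -1.75 ± 0.24, edgeR adjusted p = 0.00615). Ccne1 did not pass without control replicate 3, control replicate 6, knockout replicate 4 or knockout replicate 5 (edgeR adjusted p 0.113 to 0.168).

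Few of the genes with which optineurin works passed the test. Of 31 measured mitophagy and mitochondrial dynamics genes 2 rose (6.45%) and 3 fell (9.68%), with a median of -0.15. The falls include the targeted gene Optn itself. Over all genes 12.8% were higher and 8.48% lower. Under total count alone the falls numbered 6, and on leaving out 1 library 1 without control replicate 3 and 1 without knockout replicate 5. Sqstm1, the ubiquitin receptor p62 and itself a target of NRF2, had an FPKM of 103 and 104 in controls, 273 and 361 in treated wild type and 339 and 357 in knockout livers. All treated values lay above both controls, the log2 difference was 1.93 ± 0.16, edgeR adjusted p = 0.00156, and treated knockout and treated wild type differed by 0.10 ± 0.15 (edgeR adjusted p = 0.888). The receptors Nbr1, Tax1bp1 and Bnip3 did not pass (chosen for their role, after their values were seen). Nbr1, a relative of p62, had 17.6 and 20.9 in controls, 11.6 and 6.62 in treated wild type and 10.1 and 10.9 in knockout livers, and its log2 difference was -0.68 ± 0.28, edgeR adjusted p = 0.137. Tax1bp1, which binds ubiquitin as optineurin does, had 8.42 and 9.07 in controls and 8.23 and 9.43 in knockout livers (log2 difference 0.20 ± 0.12, edgeR adjusted p = 0.295). The hypoxia-inducible receptor Bnip3 had 101 and 83.1 in controls and 52.5 and 67.2 in knockout livers (log2 difference -0.44 ± 0.17, edgeR adjusted p = 0.114). Calcoco2, the human counterpart of which encodes NDP52, was below the expression limit.

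Kinases of the pathway were read next. Tbk1, which phosphorylates optineurin, had an FPKM of 2.42 and 3.68 in controls, 5.61 and 5.57 in treated wild type and 3.82 and 7.75 in knockout livers. Knockout replicate 4 lay near control replicate 6 and knockout replicate 5 above all others, and the log2 difference did not pass (1.10 ± 0.35, edgeR adjusted p = 0.0740). Pink1, the kinase that marks damaged mitochondria, had 62.0 and 62.2 in controls and 61.5 and 53.3 in knockout livers, a log2 difference of 0.07 ± 0.15, edgeR adjusted p = 0.761, which turns to -0.12 under total count alone. Ulk1, which starts autophagosome formation, had an FPKM of 8.14 and 10.5 in controls, 18.7 and 20.98 in treated wild type and 17.2 and 16.5 in knockout livers and rose (log2 difference 1.04 ± 0.15, edgeR adjusted p = 0.00768). The falls besides Optn were Mief2, a fission adaptor, and Oma1, an inner membrane protease, at -1.05 ± 0.24 and -0.90 ± 0.19. Mief2 did not pass without control replicate 3, control replicate 6 or knockout replicate 5 (edgeR adjusted p 0.0631 to 0.127). Oma1 did not pass without control replicate 3, control replicate 6, knockout replicate 4 or knockout replicate 5 (edgeR adjusted p 0.0507 to 0.104).

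**Figure D4:**
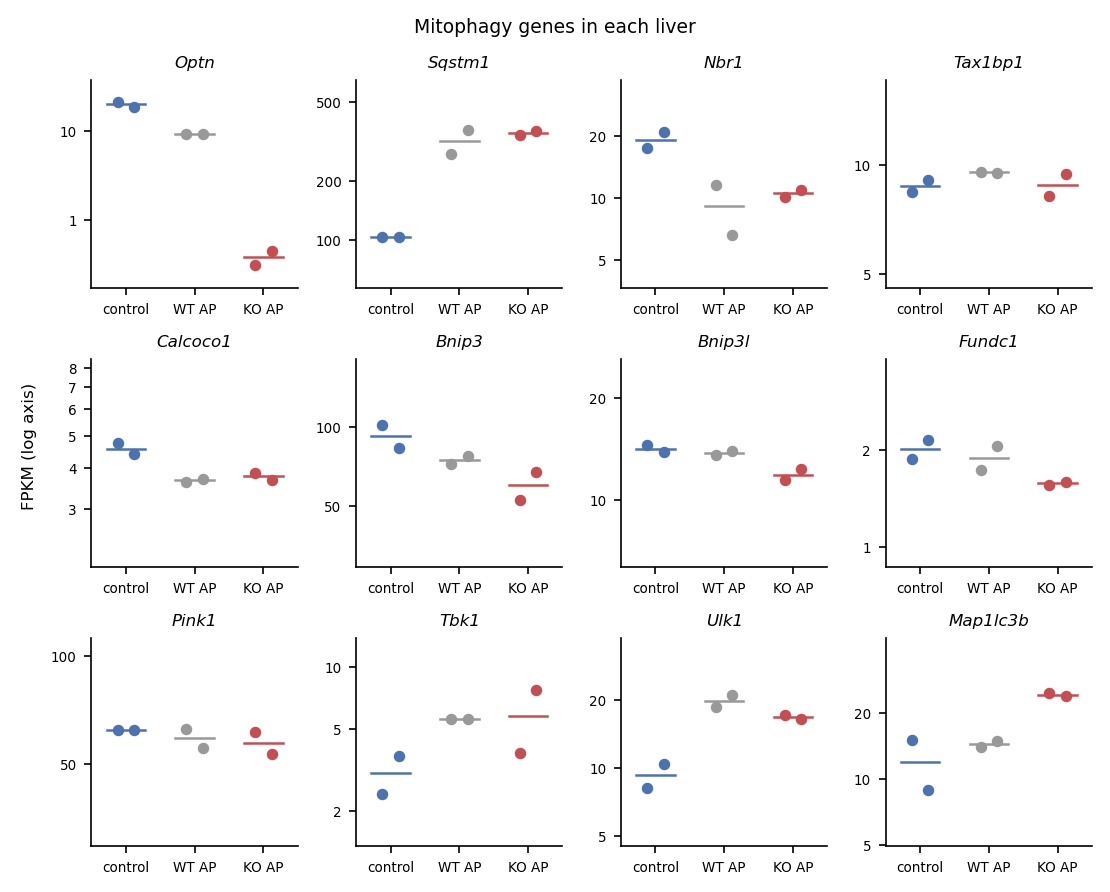
FPKM (log axes, 1 panel a gene) of Optn and 11 genes of mitophagy in control, treated wild-type (WT AP) and treated knockout (KO AP) livers, with a point for each liver and a line at each group's mean. Optn is lowest in the treated knockout livers (0.316 and 0.457), Sqstm1 and Ulk1 are higher in all treated livers.

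Core autophagy genes gave 4 higher and 3 lower of 36, shares near the background, with a median of -0.08. The higher calls were 2 without control replicate 3, 2 without control replicate 6 and 1 without knockout replicate 5, the lower calls 1 without control replicate 3 and 0 without knockout replicate 5, and under total count alone 3 were higher and 7 lower. Map1lc3b, the LC3 protein that coats autophagosomes, had an FPKM of 15.0 and 8.90 in controls, 14.0 and 15.0 in treated wild type and 24.8 and 24.0 in knockout livers. Both knockout values exceeded those of the other 4 livers, and the log2 difference was 1.21 ± 0.25, edgeR adjusted p = 0.0221 from control and 0.71 ± 0.25 from treated wild type (edgeR adjusted p = 0.533). Atg12 and Atg2a were the other rises (0.75 ± 0.13 and 0.66 ± 0.13). The falls were Atg4c, a protease that trims LC3-like proteins, from 2.76 and 2.88 to 0.865 and 0.919 (log2 difference -1.47 ± 0.23, edgeR adjusted p = 0.00901), Atg4d (-0.86 ± 0.15) and Ulk2 (-0.67 ± 0.13). Lysosome genes rose in 5 of 27 cases and fell in 0 (2 without control replicate 3, 3 without control replicate 6, 2 without knockout replicate 4 and 2 without knockout replicate 5), among them the protease gene Ctsl, from 35.0 and 50.1 to 121 and 144 (log2 difference 1.82 ± 0.20, edgeR adjusted p = 0.00373), and Tfe3, a regulator of lysosome genes, from 2.17 and 2.44 to 4.64 and 5.39 (log2 difference 1.31 ± 0.13, edgeR adjusted p = 0.00284). The other rises were Ctss, Flcn and Npc2. Map1lc3b did not pass without knockout replicate 4 or knockout replicate 5 (edgeR adjusted p 0.0862 to 0.0923). Atg12, Atg2a and Ulk2 did not pass without control replicate 3, control replicate 6 or knockout replicate 5 (edgeR adjusted p 0.0593 to 0.114). Atg4c did not pass without knockout replicate 5 (edgeR adjusted p = 0.0593). Atg4d did not pass without control replicate 3 or knockout replicate 5 (edgeR adjusted p 0.0626 to 0.0719). Ctss did not pass without control replicate 3, treated wild-type replicate 1, treated wild-type replicate 4, knockout replicate 4 or knockout replicate 5 (edgeR adjusted p 0.0598 to 0.147). Flcn and Npc2 did not pass without control replicate 3, control replicate 6, knockout replicate 4 or knockout replicate 5 (edgeR adjusted p 0.0619 to 0.184).

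Of 13 protein-coding genes of the mitochondrial genome 3 rose and 0 fell (1 without control replicate 3 and 1 without control replicate 6). mt-Atp6 had an FPKM of 1589 and 1533 in controls, 7508 and 5900.4 in treated wild type and 6373 and 8648 in knockout livers (log2 difference 2.45 ± 0.22, edgeR adjusted p = 0.00210), mt-Nd6 had an FPKM of 1845 and 1727 in controls, 3105 and 2710.0 in treated wild type and 2800.2 and 3927 in knockout livers (log2 difference 1.09 ± 0.20, edgeR adjusted p = 0.0139), and mt-Nd5 rose by 1.08 ± 0.21. mt-Nd1, transcribed from the same strand as mt-Atp6, had 5517 and 4778 in controls and 5090.1 and 6982 in knockout livers and did not pass (log2 difference 0.41 ± 0.22, edgeR adjusted p = 0.236). These genes abut or overlap one another (mt-Atp6 with mt-Atp8, mt-Nd6 with mt-Nd5 on the other strand), so fragments at their ends cannot be assigned with certainty. Nuclear genes of the respiratory chain gave 0 higher and 1 lower of 41, with a median of -0.08, and under total count alone 5 lower. The lower call was absent without either control, without treated wild-type replicate 4 and without either knockout library. The 1 fall was Ndufb3, a subunit of complex I, from 49.9 and 50.5 to 30.4 and 32.2 (log2 difference -0.50 ± 0.12, edgeR adjusted p = 0.0312). Mitochondrial chaperones and proteases gave 1 higher and 2 lower (Dnaja3, -0.61 ± 0.12, and Hspe1, -0.58 ± 0.16) of 17, with falls of 0 without control replicate 3, 0 without control replicate 6, 1 without treated wild-type replicate 1, 1 without treated wild-type replicate 4, 0 without knockout replicate 4 and 0 without knockout replicate 5. Clpx, the unfoldase of a matrix protease, rose from 9.20 and 9.37 to 22.4 and 24.4 (log2 difference 1.52 ± 0.12, edgeR adjusted p = 0.00143). Ribosomal protein genes gave 0 calls of 32 and proteasome subunits 0 of 30 with edgeR. With DESeq2 3 ribosomal protein genes were higher, and 1 proteasome gene was higher and 3 were lower, and under total count alone 5 proteasome genes were lower. Nucleolar factors of ribosome assembly rose in 7 of 22 cases and fell in 0 (3 without control replicate 3, 0 without control replicate 6 and 0 without knockout replicate 5). Of these Wdr43 went from 3.90 and 2.82 to 5.90 and 8.08 (log2 difference 1.23 ± 0.23, edgeR adjusted p = 0.0150). mt-Nd6 did not pass without control replicate 3, control replicate 6 or knockout replicate 5 (edgeR adjusted p 0.0550 to 0.0693). mt-Nd5 did not pass without control replicate 3 or control replicate 6 (edgeR adjusted p 0.0745 to 0.0836). Ndufb3 did not pass without control replicate 3, control replicate 6, treated wild-type replicate 4, knockout replicate 4 or knockout replicate 5 (edgeR adjusted p 0.0510 to 0.129). Dnaja3 did not pass without control replicate 3, control replicate 6, knockout replicate 4 or knockout replicate 5 (edgeR adjusted p 0.0517 to 0.0816). Hspe1 did not pass without any 1 of the 6 libraries (edgeR adjusted p 0.0576 to 0.214). Wdr43 did not pass without control replicate 6 or knockout replicate 5 (edgeR adjusted p 0.0600 to 0.0831).

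The direct test compares treated knockout with treated wild type, which had the same dose for the same time. In these 4 livers the tissue traces coincide with genotype, since both wild-type livers carry the skeletal muscle trace and both knockout livers lack it, so the 2 cannot be told apart. The part of the neuron markers in treated wild-type replicate 4 was not tested. In the same edgeR fit the test called 6 genes higher and 6 lower of 11693, 0.0513% in each direction, and 987 had an unadjusted p under 0.05. Of the 40 gene lists 38 had no member among the 12, and of the 18 marker lists all 18 had none. The other 2 gene lists held Optn and the pair Cyp4a10 and Cyp4a14. Leaving out libraries gave 1 higher and 3 lower without treated wild-type replicate 1, 3 and 3 without treated wild-type replicate 4, 2 and 5 without knockout replicate 4, and 2 and 4 without knockout replicate 5. They were 23 and 11 without control replicate 3 and 21 and 11 without control replicate 6. DESeq2 called 164 higher and 85 lower. A model with the set as a term takes the set effect only from control replicate 3 against control replicate 6, since each treated group lies within 1 set. These 2 mice also differ at Nnt. Calls from that model therefore do not separate genotype from the tissue traces. With the set as a term the numbers were 8 and 8, of which 4 were among the 12: Optn, Tpm3-rs7, Cyp4a14 and Tmem170b. The others did not pass there, among them Cyp4a10 at 3.68 (0.0662), Rab30 at 2.05 (0.250), Sec22c at -1.92 (0.342) and Larp4 at -1.87 (0.288) (log2 difference, adjusted p of the edgeR fit with the set term).

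Of the named genes in this set, Tpm3-rs7, Sec22c and Larp4 were lower in the knockout livers than in both other groups. Tpm3-rs7, a processed copy of a tropomyosin gene that shares sequence with its parent, had an FPKM of 15.5 and 16.8 in controls, 20.3 and 19.9 in treated wild type and 2.30 and 2.69 in knockout livers (log2 difference -3.05 ± 0.14 from treated wild type, edgeR adjusted p = 0.00325; -2.51 ± 0.14 from control, edgeR adjusted p = 0.000668). Sec22c, a vesicle traffic protein, had an FPKM of 2.47 and 2.09 in controls, 1.15 and 1.11 in treated wild type and 0.242 and 0.267 in knockout livers (log2 difference -2.19 ± 0.20, edgeR adjusted p = 0.0317; -2.98 ± 0.21 from control, edgeR adjusted p = 0.00111). Larp4, a protein that binds poly(A) tails, had an FPKM of 2.496 and 2.07 in controls, 3.31 and 3.84 in treated wild type and 0.698 and 0.928 in knockout livers (log2 difference -2.17 ± 0.19, edgeR adjusted p = 0.0304; -1.31 ± 0.19 from control, edgeR adjusted p = 0.00720). Rab30, a small GTPase of the Golgi, was the named gene that was higher in the knockout livers than in both other groups, with an FPKM of 0.664 and 0.610 in controls, 1.25 and 1.14 in treated wild type and 4.98 and 4.17 in knockout livers (log2 difference 1.90 ± 0.17, edgeR adjusted p = 0.0304; 3.03 ± 0.18 from control, edgeR adjusted p = 0.000732).

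Cyp4a10, Cyp4a14 and Tmem170b had another pattern: treated knockout livers were near the saline controls and treated wild-type livers were low. Cyp4a10, an omega-hydroxylase of fatty acids under the control of PPAR alpha, had an FPKM of 163 and 147 in controls, 18.8 and 15.4 in treated wild type and 223 and 176 in knockout livers. Its log2 difference was 3.51 ± 0.21 from treated wild type (edgeR adjusted p = 0.00718) and 0.55 ± 0.19 from control, which did not pass (edgeR adjusted p = 0.0926). Cyp4a14, its neighbour in the same cluster on chromosome 4, had an FPKM of 79.3 and 43.1 in controls, 3.89 and 3.13 in treated wild type and 119 and 76.9 in knockout livers (log2 difference 4.77 ± 0.42 from treated wild type, edgeR adjusted p = 0.0304; 0.87 ± 0.36 from control, edgeR adjusted p = 0.139). The cluster holds closely similar genes, so the division of fragments among them is uncertain. Tmem170b, a membrane protein, had an FPKM of 1.66 and 1.58 in controls, 0.0413 and 0.0567 in treated wild type and 1.44 and 1.87 in knockout livers (log2 difference 5.003 ± 0.26 from treated wild type, edgeR adjusted p = 0.00363; 0.22 ± 0.21 from control, edgeR adjusted p = 0.498). The other 4 of the 12 genes were Rps3a2 and Gm10774, which were lower in the knockout livers, and the small RNA genes Gm25679 and Gm24305, which were higher. In the direct test 10 of the 12 calls were lost when some 1 library was left out. Cyp4a14, Gm10774, Gm24305, Gm25679, Larp4, Rab30 and Sec22c did not pass without any 1 of the 4 treated libraries (edgeR adjusted p 0.0537 to 0.201). The log2 differences there were 4.39 to 5.07 for Cyp4a14, -7.56 to -7.24 for Gm10774, 8.13 to 9.41 for Gm24305, 6.96 to 8.04 for Gm25679, -2.36 to -2.002 for Larp4, 1.74 to 2.05 for Rab30 and -2.25 to -2.13 for Sec22c. Cyp4a10 did not pass without treated wild-type replicate 1 or treated wild-type replicate 4 (edgeR adjusted p 0.0627 to 0.0663). The log2 differences there were 3.34 to 3.69 for Cyp4a10. Rps3a2 did not pass without knockout replicate 4 or knockout replicate 5 (edgeR adjusted p 0.128 to 0.140). The log2 differences there were -4.15 to -4.10 for Rps3a2. Tmem170b did not pass without treated wild-type replicate 1 (edgeR adjusted p = 0.0514). The log2 difference there was 4.84 for Tmem170b. Optn and Tpm3-rs7 passed whichever library was left out.

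**Figure D5:**
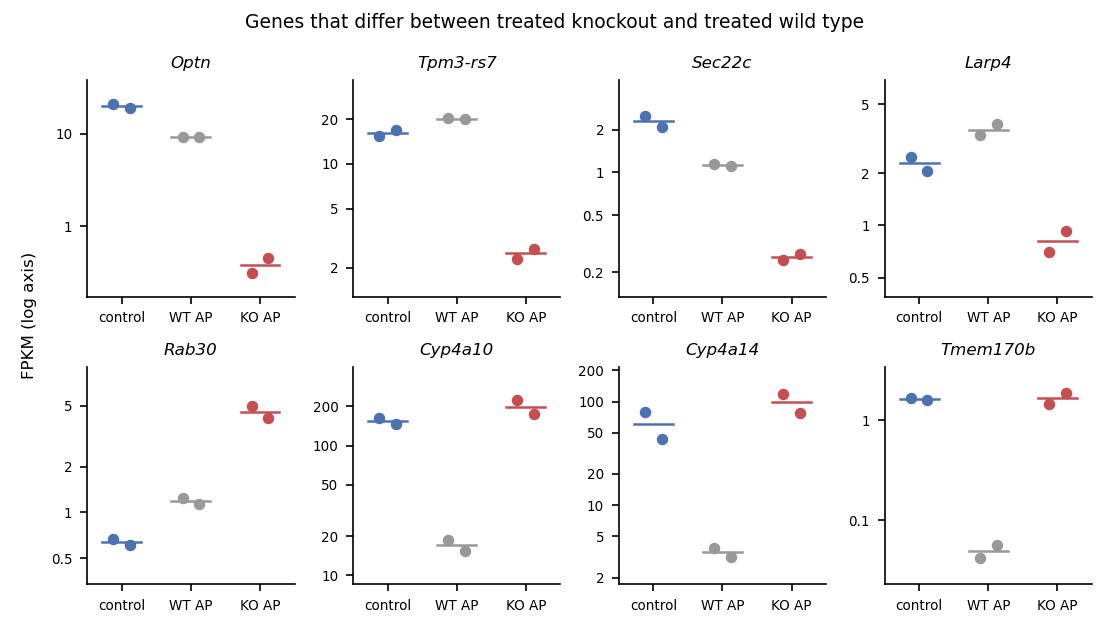
FPKM (log axes, 1 panel a gene) in control, treated wild-type (WT AP) and treated knockout (KO AP) livers of the 8 named genes that passed the direct test between the treated genotypes, with a point for each liver and a line at each group's mean. Optn, Tpm3-rs7, Sec22c and Larp4 are lowest in knockout livers, Rab30 is highest there, and Cyp4a10, Cyp4a14 and Tmem170b are low in treated wild type alone.

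Genes near Optn were counted apart from the rest. Within 5 Mb on either side 23 other genes were tested, of which 3 were higher and 4 lower than in control (30.4%, against 21.2% of all genes). In the direct test against treated wild type 0 of the 23 passed with edgeR, and 1 had an unadjusted p under 0.05. Within 10 Mb the numbers were 39 tested, 5 higher and 4 lower, and 0 in the direct test. Mcm10, described above, was 1 of the falls. The others were Camk1d (1.03 ± 0.17), a kinase, Fam107b (1.66 ± 0.29), Hspa14 (0.90 ± 0.24), an HSP70 relative, Dhtkd1 (-0.77 ± 0.15), a matrix dehydrogenase subunit, Sephs1 (-0.57 ± 0.15) and the predicted gene Gm13194 (-1.996 ± 0.39), all given as log2 differences from control.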

How the data were processed

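Poly(A) RNA of 6 mouse livers was sequenced in paired ends, and 4 libraries form the comparison. Counts per gene were deposited by the authors as raw whole numbers beside FPKM, also computed by the authors, per the file headers. The submitters' processing notes name Bowtie 0.12.2 and mm8. The deposited coordinates equal those of GENCODE M21 on GRCm38 for 94.2% of 55144 matched genes, so they are given as GRCm38. Which counter made the table, and with which strand setting, was not given in the sources used here. Deposited FPKM of genes with 0 counts are listed at 0.0001. The table holds 0 value columns that belong to no sample. The labels call the tissue liver, while one protocol text names adipose tissue, and hepatocyte genes dominated each library.

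edgeR 4.0.16 (R 4.3.3) fitted 3 group means over 6 libraries with TMM scaling and a quasi-likelihood F test (common biological coefficient of variation 0.258, 3 residual and 3.15 prior degrees of freedom), over the 11693 genes whose FPKM averaged 0.5 or more in the 4 libraries. P-values were adjusted by Benjamini-Hochberg over all of them, with a threshold of 0.05. The standard error is the log2 difference divided by the root of F. Scripts were tested on simulated data. An exact permutation test of 2 against 2 mice cannot go below p = 0.333 and was not used. Alternatives were DESeq2 1.42.0, limma 3.58.1 on log2(FPKM + 0.5) and log2(FPKM + 0.1), other scalings and filters, the 4 libraries alone, the library set as a term, and each library left out. Where that left 1 mouse in a group, that mouse is assumed to vary like those of the other groups.

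The 40 gene lists, 18 marker lists and named genes were chosen with earlier results of these data known. Named were Optn, the 8 largest rises and falls among called genes without overlap of the groups and at a mean FPKM of 1 or more, the 6 largest in each direction against treated wild type, the leading called members of each list and fixed examples. Where few members of a list were called, they were named after their values were seen. Some genes that the rule names are not reported here. Lists carry no test. They are described by counts and by the median log2 difference, beside the same over all genes tested. For a count of 0, 3 counts per library were taken as the upper limit, which covers counting error only. Promoters are RefSeq's, read from a table on GRCm38.p6.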

Additional observations from a re-analysis of the deposited data

Results flagged for a closer look

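In 12 genes the difference between treated knockout and control differed from that between treated wild type and control. Since both share the controls, the test of that difference is the direct contrast between the treated groups (edgeR, 2 mice a group, adjusted over 11693 genes). On the log2 scale Optn gave -4.60, Tpm3-rs7 -3.05, Sec22c -2.19 and Larp4 -2.17. The processed pseudogenes Rps3a2 and Gm10774, copies of genes expressed elsewhere, gave -4.13 and -7.40. Gm10774 had 1 count in each knockout library and 139 to 190 counts in the other 4. Higher in knockout livers were Rab30 at 1.90, Cyp4a10 at 3.51, Cyp4a14 at 4.77 and Tmem170b at 5.003. The small nuclear RNA genes Gm25679 and Gm24305 gave 7.60 and 8.91. Gm25679 had 441 and 785 counts in the knockout livers and at most 3 elsewhere, and Gm24305 had 357 and 728 against at most 1. Both lie on chromosome 12, and poly(A) libraries hold few molecules of this class. Of the 12, 2 kept their call whichever library was left out.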

How the results depend on the processing

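No paired analysis was possible because the groups compared share fewer than 2 replicate numbers. Of the 2484 genes called against control, 0 changed sign under any alternative. The 1493 higher genes became 605 with a mean FPKM of at least 5 and 744 with a term for the library set, and ranged from 600 to 1374 with 1 library left out. The 991 lower genes became 1843 under total count alone, 463 at the stricter FPKM, 1654 in DESeq2, 1944 and 1813 in limma with pseudocounts of 0.5 and 0.1, and 343 with the set term, and ranged from 261 to 878 with 1 library left out. At the stricter FPKM fewer genes were tested (4364), and leaving out a library leaves fewer samples. The cause of the other shifts was not tested. Against treated wild type the 6 higher genes became 24 with no filter, 164 in DESeq2, and 22 and 11 in limma, and ranged from 1 to 23 with 1 library left out. The 6 lower became 13 with no filter and 85 in DESeq2, and ranged from 3 to 11. With a term for the library set 8 were higher and 8 lower, and 4 of the 12 direct calls were kept. That term is estimated from the 2 control mice alone. Of 178 named genes called against control, 101 kept their call whichever library was left out, and 167 kept it under total count alone. Pink1, which passed nowhere, changed sign to -0.12 under total count alone and in limma with either pseudocount, and to -0.062 without knockout replicate 4. Over all left-out libraries it ranged from -0.062 to 0.18.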
